A study of Homo sapiens with 54 samples.

Results

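The intergenic long non-coding RNAs that carry a LINC symbol were described in tumours grown from LNCaP cells. Of 60642 gene symbols in the expression table, 161 were members. They were chosen by their measured level: the symbol had to be LINC followed only by digits, the level had to reach 1 rescaled TPM in at least 8 of the 54 tumours, and its mean over all tumours had to reach 2. TPM gives a transcript's share of a library, corrected for its length, and it was rescaled here so that the human genes of each tumour sum to 1000000. The table held 2104 symbols of this form, of which 635 were listed at 0 in every tumour. Another 128 reached 1 in at least 8 tumours but had a mean under 2, so 289 LINC symbols in all entered the test.

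Long intergenic non-coding RNAs are transcribed from DNA between protein-coding genes, and most are spliced, capped and polyadenylated like messenger RNA but are not translated into a known protein. They are usually present at low levels and in fewer tissues than messenger RNA, and a LINC symbol is a placeholder given where no function has been assigned. A few act on a neighbouring gene, and in prostate cells several are known to follow androgen levels.

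LNCaP clone FGC is a human prostate cancer line that responds to androgens. Each tumour grew from 1 M of these cells (1 M being 1000000) placed under the skin of its own male NOD-SCID mouse, a strain lacking functional T and B cells, which was 5 to 6 weeks old on arrival. Surgery followed at a tumour size near 200 mm3. PRE-CX mice (n = 9) had mock surgery, kept their androgens, and gave tumours of 1000 mm3. All other mice were castrated. POST-CX tumours (n = 8) were taken 1 week later, at the low point of serum prostate-specific antigen (PSA). CRPC tumours (n = 10) were taken once PSA had returned or the tumour had grown to 1000 mm3. Mice of the remaining groups also received enzalutamide, an antiandrogen drug, by mouth at 10 mg/kg on 5 days a week, started when PSA rose again after castration. ENZS tumours (n = 12) were taken at the next low point of PSA, and ENZR tumours (n = 15) once PSA or tumour size had escaped the drug. All tumours come from a single cell line and each from its own mouse. What makes up the spread between tumours was not tested, and no batch is given in the labels.

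The cell line label was checked first. The summed level of 10 luminal prostate and LNCaP markers, such as KLK3 and KRT8, was at least 3301 rescaled TPM in every tumour, whereas 4 basal markers summed to at most 10.5 and 6 neuroendocrine markers to at most 8.47. Before rescaling, the human genes made up 12.1% to 97.5% of the TPM of a tumour, because mouse genes had been removed. The 2 lowest tumours, ENZR mouse 87 (12.1%) and POST-CX mouse 91 (27.9%), were kept, and counts without them are given in the closing section. Other measures moved with the groups. The summed level of 7 stromal markers ranged from 6.37 to 17.1 in PRE-CX, from 19.4 to 292 in ENZS and from 12.4 to 82.9 in ENZR. These are reads assigned to human genes, and the markers did not move together. In ENZS, LUM reached 137, COL3A1 73.3 and DCN 43.1. COL1A1 had medians of 7.13 in PRE-CX and 8.22 in ENZS, and ACTA2 of 2.03 and 3.93. COL1A2 was at most 1.05 and MYH11 at most 0.823 in any tumour. The summed level of 8 cell division genes ranged from 406 to 659 in PRE-CX, from 34.5 to 194 in ENZS and from 31.0 to 407 in ENZR. The part of these measures in the results below was not tested. In a bulk tumour, fewer cells of a type and less RNA per cell cannot be told apart.

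The promoters of 4 members are shown because these members carry the main patterns described below: LINC00844 differed between the relapse steps, LINC02726 rose in all castrated groups, LINC00161 fell under enzalutamide, and LINC00886 was among the largest rises in ENZS. The sequences are from RefSeq on GRCh38.p14, run 5′ to 3′ on the strand of the gene, and span 250 bases before to 50 bases after its annotated start. They lie at chr10:58999268-58999567 on the plus strand, chr11:23728737-23729036 on the plus strand, chr21:28539068-28539367 on the plus strand and chr3:156817013-156817312 on the minus strand. Capitals mark common core promoter motifs on either strand, namely the CCAAT box (CCAAT), the TATA box (TATAAA) and the GC box (GGGCGG).
LINC00844: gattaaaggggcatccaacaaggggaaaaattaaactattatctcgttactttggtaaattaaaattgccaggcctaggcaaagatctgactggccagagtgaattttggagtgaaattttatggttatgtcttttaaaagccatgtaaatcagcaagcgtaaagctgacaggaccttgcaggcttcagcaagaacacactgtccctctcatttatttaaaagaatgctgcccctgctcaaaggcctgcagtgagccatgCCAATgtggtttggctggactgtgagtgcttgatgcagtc
LINC02726: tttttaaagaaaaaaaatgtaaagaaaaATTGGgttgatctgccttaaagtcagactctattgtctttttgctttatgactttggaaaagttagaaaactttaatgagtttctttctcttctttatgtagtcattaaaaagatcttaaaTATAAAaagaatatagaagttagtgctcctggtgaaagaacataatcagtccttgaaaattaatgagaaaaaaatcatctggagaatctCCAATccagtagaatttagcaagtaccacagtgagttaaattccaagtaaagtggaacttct
LINC00161: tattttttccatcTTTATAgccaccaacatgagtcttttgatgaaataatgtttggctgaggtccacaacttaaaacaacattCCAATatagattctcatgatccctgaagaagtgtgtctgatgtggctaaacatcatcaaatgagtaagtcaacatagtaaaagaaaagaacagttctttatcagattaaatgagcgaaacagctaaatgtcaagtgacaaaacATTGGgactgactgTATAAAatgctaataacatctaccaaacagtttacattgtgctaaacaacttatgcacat
LINC00886: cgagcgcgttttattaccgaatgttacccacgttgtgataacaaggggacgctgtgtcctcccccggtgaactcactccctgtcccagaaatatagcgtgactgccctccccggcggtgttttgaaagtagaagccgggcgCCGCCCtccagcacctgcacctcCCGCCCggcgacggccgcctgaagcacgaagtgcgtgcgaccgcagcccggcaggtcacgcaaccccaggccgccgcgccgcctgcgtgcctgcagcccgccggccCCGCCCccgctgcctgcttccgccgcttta

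LINC00844 held 1 CCAAT box, LINC02726 held 2 and LINC00161 held 2, and the latter pair also held TATAAA, with 1 and 2 matches. LINC00886 held 3 GC boxes and neither of the other motifs. Among all 27305 RefSeq promoters of this length, 35.7% held CCAAT on at least 1 strand, against 56 of the 119 member promoters with a sequence (47.1%). The GC box was present in 44.6% of all promoters and 49.6% of member promoters, and TATAAA in 12.0% and 14.3%. TGTTTAC, the core bound by the pioneer factor FOXA1, was found in 3.41% of all promoters and in 6 member promoters (5.04%). These matches describe letters in a short window and do not show binding.

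In RefSeq, 160 of the 161 members had an entry, 143 under the same symbol and 17 under another symbol that lists the LINC symbol as a synonym. Of these entries, 158 were annotated as long non-coding RNA. The other 2 entries, LINC00634 (SMIM45) and LINC02804 (GPR89B), are now annotated as protein-coding genes. The span of 26 members overlapped that of a protein-coding gene, the nearest coding gene of 101 members lay within 100 kb without overlap, and that of 33 members lay farther away. The transcription start of 15 members faced that of a coding gene on the opposite strand within 1000 bases. Of the 141 members with transcript models, the median longest transcript was 2253 bases long with 3 exons, and 24 had a single exon. Chromosome 1 held 29 members and chromosome 3 held 12, more than any other chromosome.

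Levels were low for most members. The mean over all tumours was at least 20 rescaled TPM for 23 members, between 5 and 20 for 59, and between 2 and 5 for 79. There were 100 members at 1 or more in all 54 tumours. Just inside the rule were LINC01133 (mean 2.01), LINC00472 (mean 2.03) and LINC01194 (mean 2.05). Just outside were LINC02175 (mean 1.88), LINC01060 (mean 1.88) and LINC00910 (mean 1.87).

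Counted per tumour, PRE-CX had the lowest median number of members expressed, though its range met those of CRPC, ENZS and ENZR. The level rule used the same threshold and tumours, and 17 members had a PRE-CX mean under 1. The choice of members thus favours a low count in PRE-CX. The number of members at 1 or more was 129 to 149 in PRE-CX with a median of 138, against medians of 157.5 in POST-CX, 158 in CRPC, 158.5 in ENZS and 156 in ENZR. The summed level of all members was 1171 to 1663 rescaled TPM in PRE-CX with a median of 1319. It was 1521 to 1924 in POST-CX (median 1859), 1235 to 2060 in CRPC (median 1850), 1891 to 2765 in ENZS (median 2289) and 1450 to 2851 in ENZR (median 2057). Every ENZS tumour was thus above every PRE-CX tumour, while the other groups overlapped with PRE-CX. The number of all symbols at 1 or more also differed, from 14517 to 15466 in PRE-CX and from 15578 to 16742 in ENZS. By group mean, 121 members were lowest in PRE-CX, and 83 were highest in ENZS and 41 in ENZR. Of all genes tested, 71.3% had a higher mean log2 level in ENZS than in PRE-CX, and 70.6% had one in ENZR. The level rule also admits symbols that are low in PRE-CX, so these counts describe the members as chosen.

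**Figure D1:**
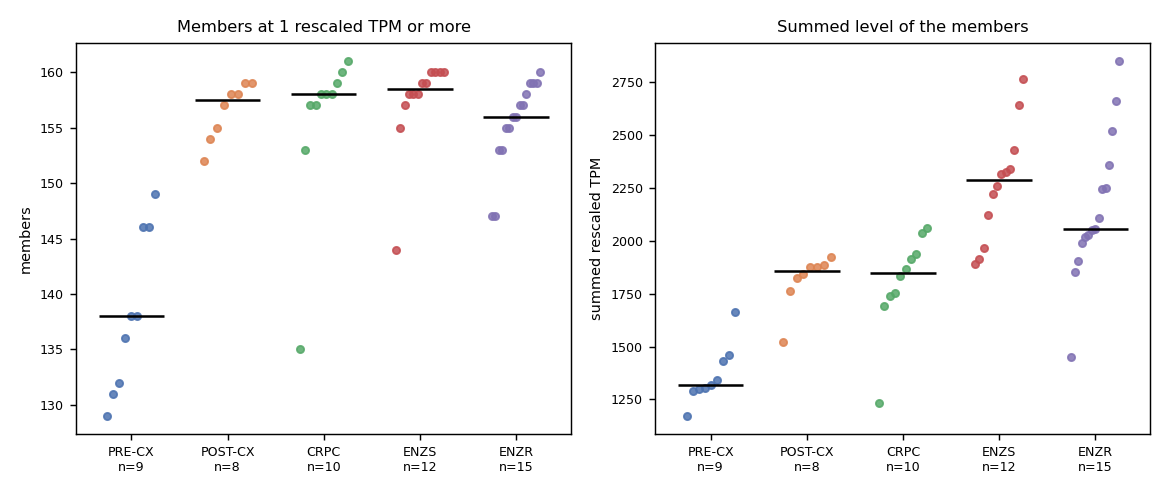
The left plot gives the number of the 161 members at 1 rescaled TPM or more in each tumour and the right plot their summed rescaled TPM, with a point per tumour and a bar at the group median. PRE-CX has the lowest median, 138 members, and CRPC mouse 81 stands apart from its group with 135 members and a sum of 1235. The rule that chose the members uses the same threshold and the same tumours.

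The most abundant member was LINC01578, the RNA now called CHASERR (chr15:92882843-92898747, plus strand, GRCh38), which is known to repress its neighbour CHD2, a chromatin remodeller. LINC01578 measured 98.9 to 143 rescaled TPM in PRE-CX (median 110), 133 to 215 in POST-CX (median 159), 127 to 233 in CRPC (median 197), 204 to 512 in ENZS (median 333) and 92.1 to 430 in ENZR (median 267). All 12 ENZS tumours were above the PRE-CX range, as were 14 of 15 ENZR tumours, and ENZR mouse 75 was below it. On the log2(rescaled TPM + 1) scale, LINC01578 rose by 1.49 (SE 0.17, limma adjusted p = 1.87e-10) in ENZS and by 1.14 (SE 0.16, adjusted p = 5.38e-08) in ENZR against PRE-CX. The ENZR rise was under 1, and so not called, at 0.89 with TPM as deposited and at 0.88 with median centring. CHD2, whose span begins 1577 bases from that of LINC01578, was higher by 0.67 (adjusted p = 5.1e-05) in ENZS, a difference under the size required for a call.

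Here and below, a gene was called higher or lower where the adjusted p was under 0.05 over all 17593 genes tested and the log2 difference was at least 1 in size. The verbs rose and fell are kept for called genes.

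The other abundant members differed less between the groups. LINC02197, on chromosome 5 in a region of duplicated sequence where reads can be split among copies, had a median of 73.3 in PRE-CX and 127 in ENZS. Its ENZS difference of 0.64 (SE 0.10, adjusted p = 1.71e-07) was not large enough for a call, although all 12 ENZS tumours were above the PRE-CX range. LINC00665 went the other way, with 75.3 to 101 in PRE-CX (median 85.03) and 46.4 to 68.7 in ENZS (median 55.9). None of the ENZS tumours reached the PRE-CX range, and the difference was -0.60 (SE 0.10, adjusted p = 6.18e-07), again without a call. LINC00963, first described in prostate cancer cells that grow without androgen, had a median of 50.9 in PRE-CX, 59.2 in CRPC and 70.4 in ENZR. Its ENZR difference was 0.55 (SE 0.14, adjusted p = 0.000937) and 12 of 15 ENZR tumours were above the PRE-CX range.

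Of the next most abundant members, LINC01278, LINC00847 and LINC02210 had ENZS differences of 0.60, 0.52 and 0.69, each with an adjusted p under 0.05 and each short of a call. LINC00467, a transcript described in several cancers, differed by 0.17 (SE 0.12, adjusted p = 0.215) in ENZS. LINC01667 and LINC02802, which lie in duplicated parts of chromosomes 21 and 1, differed by -0.37 (adjusted p = 0.0963) and 0.34 (adjusted p = 0.190). Among the 23 members with a mean of at least 20, 5 were called higher in ENZS (21.7%) and 0 lower by limma, beside 10.5% of all genes tested called higher and 3.09% lower.

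The effect of castration was addressed by comparing POST-CX with PRE-CX. After 1 week, 16 of the 161 members were called higher and 1 lower, where 2.39% of all genes tested were called higher and 1.28% lower. The median log2 difference was 0.48 over the members and 0.16 over all genes. The members with the largest rises were LINC02614, LINC02726 and LINC02672, and the member that fell was LINC00844. With TPM as deposited, calls dropped to 6 higher and 1 lower among members, with medians of 0.26 for members and -0.05 for all genes.

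LINC02614 (chromosome 3, start 125827237, end 125886077) measured 1.33 to 3.77 rescaled TPM in PRE-CX (median 2.18) and 12.6 to 19.8 in POST-CX (median 16.8). All 8 POST-CX tumours were above the PRE-CX range. The rise was 2.36 (SE 0.30, adjusted p = 7.75e-08) on the log2 scale. In CRPC the level ranged from 3.74 to 27.1 (median 8.04), with a lower end just under the highest PRE-CX tumour, and the rise over PRE-CX was 1.59 (SE 0.29, adjusted p = 5.12e-05). In ENZS it ranged from 5.87 to 29.6 and in ENZR from 5.54 to 32.7, so that both enzalutamide groups were entirely above PRE-CX. The rises were 2.07 (SE 0.27) in ENZS and 2.25 (SE 0.26) in ENZR.

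LINC02726 (chr11:23728987-23749975, plus strand) was close to the limit of detection in intact mice. Its level was 0.0641 to 2.51 in PRE-CX, with a median of 0.231, and PRE-CX mouse 53 was the highest. In POST-CX it ranged from 2.66 to 10.1 (median 3.83), and all 8 tumours were above PRE-CX. The rise was 1.85 (SE 0.42, adjusted p = 0.00107). The level ranged from 0.753 to 15.0 in CRPC (median 6.13), from 0.837 to 16.1 in ENZS (median 10.5) and from 2.81 to 28.9 in ENZR (median 6.85). Of these 37 tumours, CRPC mouse 81 and ENZS mouse 49 lay within the PRE-CX range and the others above it. The rises over PRE-CX were 2.40 (SE 0.40) in CRPC, 2.67 (SE 0.39) in ENZS and 2.91 (SE 0.37) in ENZR.

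The coding gene nearest to LINC02726 is LUZP2, which encodes a leucine zipper protein, at a distance of 747078 bases. LUZP2 was abundant, with a mean of 173 rescaled TPM, and it rose over PRE-CX in the same comparisons, by 1.82 in POST-CX, 1.75 in CRPC, 2.01 in ENZS and 2.03 in ENZR.

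LINC02672 (chromosome 10, start 52972264, end 53030110) was under 1 in all 9 PRE-CX tumours, from 0.0428 to 0.909, and was the single member of which this was true. In POST-CX it ranged from 0.893 to 9.79 (median 2.67) and 7 of 8 tumours were above the PRE-CX range. The rise was 1.53 (SE 0.47, adjusted p = 0.0137), which was not called with TPM as deposited (1.23, adjusted p = 0.121). The range was 1.31 to 31.5 in CRPC (median 7.82), and 3.87 to 90.5 in ENZR (median 10.3), and both groups were entirely above PRE-CX. In ENZS the range was 0.0326 to 35.0 (median 9.45), with ENZS mouse 49 below every PRE-CX tumour and the other 11 above. The rises were 2.75 (SE 0.45) in CRPC, 2.81 (SE 0.43) in ENZS and 3.35 (SE 0.41) in ENZR, the largest of any member in each of these comparisons. Since a pseudocount of 1 was added, these differences understate the change of a gene that started below 1.

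**Figure D2:**
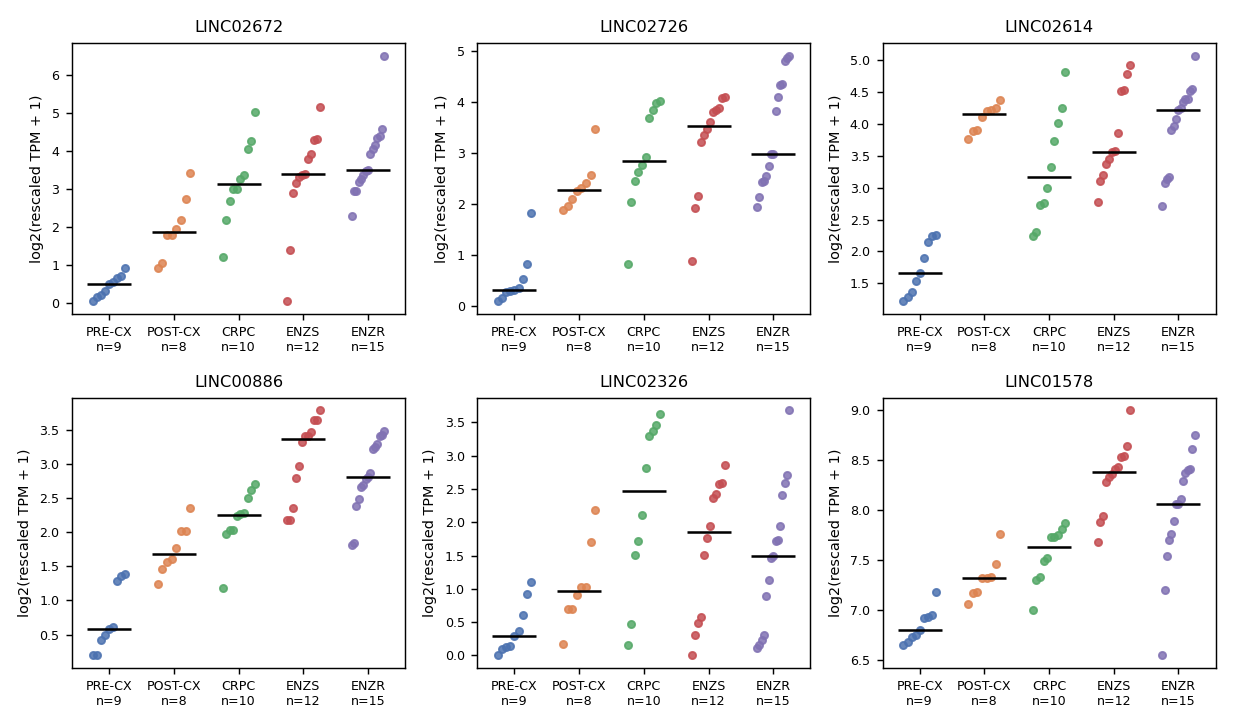
Levels of 6 members that rose, as log2(rescaled TPM + 1), with a point per tumour in order of level within each group and a bar at the group median. The vertical axes differ between plots, and LINC02672 was under 1 rescaled TPM in all 9 PRE-CX tumours and at a median of 10.3 in ENZR.

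The comparison of CRPC with PRE-CX asked which levels differed once tumours had regrown without androgens. Here 20 members were called higher and 0 lower, beside 2.18% of all genes higher and 1.16% lower. The members differed by a median of 0.37 on the log2 scale, against 0.08 for all genes. At an unadjusted p under 0.05 in limma, in either direction, there were 88 members and 5795 genes. Of the 20 calls, 10 came from the 17 members with a PRE-CX mean under 1, which could meet the level rule only by being higher elsewhere. Among the 115 members with a PRE-CX mean of at least 2, 6 were called higher (5.22%), against 1.69% of the 12982 other symbols with the same PRE-CX mean under the rule. LINC02672, LINC02726 and LINC02326 led the rises, and each had a PRE-CX mean under 1. LINC02326 (chr14:28975649-29065055, minus strand), was at 0 to 1.14 in PRE-CX (median 0.227) and 0.117 to 11.3 in CRPC (median 4.67). There were 8 of 10 CRPC tumours above the PRE-CX range, with the remaining 2 inside it. The rise was 1.84 (SE 0.43, adjusted p = 0.00136).

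CRPC was also compared with POST-CX, the step from response to relapse after castration. Of the members, 1 was called higher and 0 lower, and over all genes 0.00568% were called higher and 0.0114% lower. The called member was LINC00844, and the other called genes were FAM13A and the pseudogene BCAP31P1, both lower. At an unadjusted p under 0.05 there were 19 members and 2259 genes. The median difference over the members was -0.07, the same as over all genes, and it turned to 0.18 with TPM as deposited and 0.03 with median centring.

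LINC00844 (chr10:58999518-59001617, plus strand), a transcript known from prostate tissue as androgen-regulated, had a pattern unlike that of the rising members. Its level was 3.56 to 27.6 rescaled TPM in PRE-CX with a median of 10.4. It was 1.45 to 4.37 in POST-CX (median 2.25), where 5 of 8 tumours were below the PRE-CX range, and it fell by 1.87 on the log2 scale (SE 0.55, adjusted p = 0.00993). In CRPC it was 7.59 to 47.6 (median 16.3), and all 10 tumours were above every POST-CX tumour. The rise from POST-CX was 2.45 (SE 0.54, adjusted p = 0.0486), close to the threshold. It was not called with TPM as deposited (adjusted p = 0.0602), a pseudocount of 0.1 (adjusted p = 0.0875) or no filter on low values (adjusted p = 0.0900). CRPC and PRE-CX differed by 0.59 (SE 0.52, adjusted p = 0.460), with 7 of 10 CRPC tumours inside the PRE-CX range.

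Under enzalutamide, LINC00844 was spread more widely than in any other group. It ranged from 0.957 to 46.5 in ENZS (median 9.40), with 4 of 12 tumours above and 3 below the PRE-CX range, and the difference from PRE-CX was -0.27 (SE 0.50, adjusted p = 0.659). In ENZR it ranged from 0, in mouse 87 with a human share of 12.1%, to 41.7 (median 4.80). Of the 15 tumours, 7 were below the PRE-CX range and 1 above. LINC00844 fell by 1.43 (SE 0.48, adjusted p = 0.00940) in ENZR against PRE-CX. The SD of its log2 level was 1.54 in ENZS and 1.43 in ENZR, against 0.82 in PRE-CX, 0.45 in POST-CX and 0.87 in CRPC.

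Ordered by median, LINC00844 was highest in CRPC, then in PRE-CX, ENZS, ENZR and POST-CX. Of the neighbours in this order, CRPC and PRE-CX overlapped, and so did PRE-CX and ENZS, ENZS and ENZR, and ENZR and POST-CX.

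**Figure D3:**
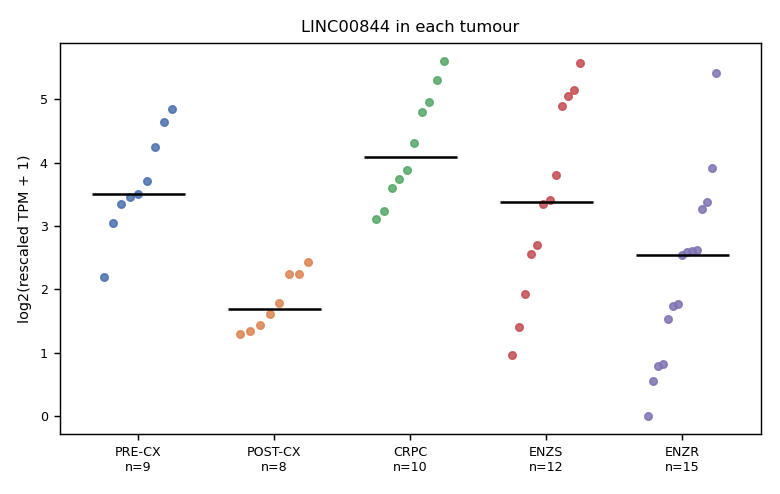
LINC00844 in each of the 54 tumours as log2(rescaled TPM + 1), with a point per tumour in order of level within each group and a bar at the group median. All 10 CRPC tumours lie above the 8 POST-CX tumours, and the ENZS and ENZR tumours spread from near 0 to above the PRE-CX range.

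The step from response to relapse was then compared between castration alone and enzalutamide. For LINC00844 the difference ENZR minus ENZS was -1.16 (SE 0.44, adjusted p = 0.397), and CRPC minus POST-CX was 2.45, so that the steps differed by -3.62 (SE 0.69, adjusted p = 0.0124). It was the only member called in this difference of differences, beside 0.0284% of all genes called positive and 0.0455% called negative, and it was called under every alternative tried. LINC01670, named after its values were seen, differed by -1.05 (SE 0.29, adjusted p = 0.0852) and was called only with median centring (-1.12, adjusted p = 0.0433) and without ENZS mouse 49 and CRPC mouse 81 (-1.22, adjusted p = 0.0303). Also called in this difference was KRT14, a keratin of basal cells, at -2.14 (SE 0.45, adjusted p = 0.0251), whose level was low, with group medians of 0.338 to 3.70 rescaled TPM.

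LINC00844 was under 1 rescaled TPM in 5 tumours, ENZR mice 87, 23, 72 and 95 and ENZS mouse 49. In these tumours KLK3, the gene of PSA, was at 92.0, 942, 323, 738 and 232. The lowest PRE-CX value was 2129, and the medians of their own groups were 1231 in ENZR and 2803 in ENZS. LINC02672 was at 8.56 to 20.3 in the 4 ENZR tumours and at 0.0326 in ENZS mouse 49. ENZR mouse 87, where LINC00844 was at 0, had the lowest human share before rescaling (12.1%), so its low values are less certain. By Spearman's rho over the 54 tumours, the genes most like LINC00844 were KRT14 (0.79), C19orf48 (0.73), KLK3 (0.69), TOMM20 (0.67) and AC100756.4 (0.66). The lowest values were those of HMBOX1 (-0.72), AC015987.1 (-0.71) and FAM160A2 (-0.69). The tumours share their group structure, so these values describe likeness across the series and carry no p. Among members, LINC01670 and LINC02050 were most like it, both at 0.50, and LINC00659 least, at -0.60.

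KLK3 itself had medians of 4679 in PRE-CX, 1529 in POST-CX, 4690 in CRPC, 2803 in ENZS and 1231 in ENZR. Of a panel of 12 androgen-induced genes, 11 fell in POST-CX, 8 in CRPC, 9 in ENZS and 11 in ENZR against PRE-CX, and 0 rose. LINC00844 was called lower in POST-CX and ENZR, as most of the panel was. In CRPC and ENZS most of the panel was also called lower, but LINC00844 was not.

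The comparison of ENZS with PRE-CX gave the most calls. There were 52 members called higher and 1 lower, beside 10.5% of all genes higher and 3.09% lower. The members called higher make up 32.3% of the 161. The median difference was 0.75 over the members and 0.29 over all genes. With median centring, which sets the median gene to the same level in each tumour, the calls were 31 higher and 2 lower among members, with medians of 0.45 for members and -0.0037 for all genes. The share of higher calls among all genes called was 77.2% with rescaled TPM and 47.9% with centring.

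The level rule bears on this count. A symbol that is nearly absent in PRE-CX could become a member only by being higher elsewhere, and all 17 members with a PRE-CX mean under 1 were called higher in ENZS. The 115 members with a PRE-CX mean of at least 2, which were at the level of the rule already in intact mice, gave 24 calls higher (20.9%) and 1 lower in ENZS. The 12982 other symbols that met the same rule and the same PRE-CX mean gave 8.20% higher and 3.74% lower. In POST-CX the corresponding values were 9 members (7.83%) higher and 1 lower, against 2.00% of the other symbols higher. In ENZR they were 19 members (16.5%) higher and 3 lower, against 5.48% and 3.39%. These shares are descriptions of the members as chosen.

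Antisense symbols, those ending in -AS and digits, lay between the members and the other genes. Of 290 that met the level rule, 20.7% were called higher in ENZS, 16.2% in ENZR, 4.48% in POST-CX and 3.10% in CRPC. The 13961 non-member symbols under this rule gave 11.1%, 8.11%, 2.80% and 2.56%. The 128 LINC symbols that were tested but had a mean under 2 gave 14.1%, 4.69%, 0% and 0%. Of all genes tested, 10.5%, 7.38%, 2.39% and 2.18% were called higher in the same comparisons. The high shares of the members were thus not shared by the LINC symbols below the level rule. At their lower levels the pseudocount of 1 also shrinks differences. With a mean over all tumours of 2 to 20 rescaled TPM, 34.1% of 138 members and 14.6% of 7327 other symbols were called higher in ENZS. The treated groups enter that mean, so the 138 include members with a PRE-CX mean under 1. With a PRE-CX mean of at least 2, the shares were 20.9% and 8.20%, as given above. A list of 29 tested long non-coding RNAs with other names gave 3 higher and 3 lower in ENZS, with a median difference of -0.08.

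**Figure D4:**
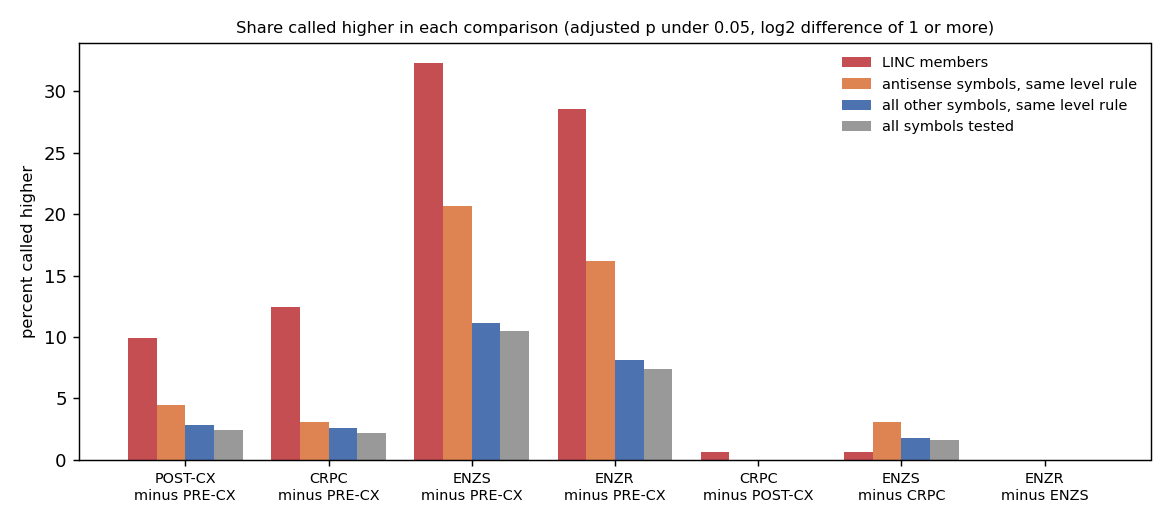
Bars give the percent of symbols called higher in each of 7 comparisons for the LINC members, for antisense symbols and all other symbols under the same level rule, and for all symbols tested. The members reach 32.3% in ENZS and 28.6% in ENZR against PRE-CX and 0% in ENZR against ENZS, and the rule that chose the members uses the same tumours.

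LINC02672 and LINC02726 had the largest ENZS rises, followed by LINC00886 (chr3:156747343-156817062, minus strand), which lies 9291 bases from LEKR1. LINC00886 measured 0.144 to 1.62 in PRE-CX (median 0.500), 1.37 to 4.09 in POST-CX (median 2.22), 1.28 to 5.53 in CRPC (median 3.76), 3.51 to 12.8 in ENZS (median 9.28) and 2.51 to 10.2 in ENZR (median 6.02). Both enzalutamide groups were entirely above the PRE-CX range. The rise was 2.37 in ENZS (SE 0.22, adjusted p = 8.24e-13) and 2.10 in ENZR (SE 0.21, adjusted p = 8.66e-12). It was 1.46 in CRPC (SE 0.23, adjusted p = 3.66e-06) and 1.02 in POST-CX (SE 0.24, adjusted p = 0.00126), and the last of these was under 1 with TPM as deposited, with median centring and without the 2 tumours of lowest human share.

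LINC00161 (chr21:28539318-28540355, plus strand) was the member called lower in ENZS. It measured 6.53 to 68.3 in PRE-CX (median 12.7), 8.57 to 23.6 in POST-CX (median 18.2), 8.55 to 45.0 in CRPC (median 19.8), 0.402 to 25.6 in ENZS (median 6.96) and 2.03 to 57.9 in ENZR (median 6.09). The groups overlapped, with 5 of 12 ENZS and 9 of 15 ENZR tumours below the PRE-CX range. It fell by 1.26 (SE 0.43, adjusted p = 0.0100) in ENZS and by 1.06 (SE 0.41, adjusted p = 0.0247) in ENZR, where the call was lost without a filter on low values (adjusted p = 0.0507). In POST-CX and CRPC it differed from PRE-CX by -0.04 and 0.24, with adjusted p of 0.958 and 0.747.

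ENZR against PRE-CX gave 46 members called higher and 3 lower, beside 7.38% of all genes higher and 2.83% lower. The medians were 0.67 over the members and 0.25 over all genes. With median centring the counts were 20 and 4 and the medians 0.41 and -0.01. Higher calls made up 72.3% of all genes called, and 46.0% with centring. LINC02672, LINC02726 and LINC02614 led the rises, and the members that fell were LINC00844, LINC01881 and LINC00161.

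LINC01881 (chromosome 2, start 242088633, end 242160503) had a lower median in each other group than in PRE-CX and, with rescaled TPM, was called in ENZR. It measured 13.2 to 33.8 in PRE-CX (median 22.4), 7.96 to 17.2 in POST-CX (median 14.5), 5.23 to 23.4 in CRPC (median 10.4), 6.39 to 16.7 in ENZS (median 9.92) and 4.12 to 13.7 in ENZR (median 9.85). There were 12 of 15 ENZR tumours below the PRE-CX range. It fell by 1.12 (SE 0.18, adjusted p = 8.70e-07) in ENZR. The differences were -0.72 in POST-CX, -0.94 in CRPC and -0.98 in ENZS, each with an adjusted p under 0.05, and the ENZS value passed -1 with TPM as deposited (-1.01), with median centring (-1.28) and with a pseudocount of 0.1 (-1.04). The CRPC value passed -1 with median centring (-1.03, adjusted p = 1.87e-05).

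ENZS was compared with CRPC, the relapse after castration without the drug. CRPC is not the state in which the drug was started. Enzalutamide began when PSA rose again, whereas CRPC tumours were taken once PSA had returned or the tumour had grown to full size. Calls were made for 1 member in the higher and 2 in the lower direction, beside 1.59% of all genes higher and 1.24% lower. The median was 0.32 for members and 0.21 for all genes. LINC01980 (chr3:27797588-27860325, plus strand), 74875 bases from the T-box gene EOMES, measured 0.651 to 8.21 in CRPC (median 4.37) and 0.674 to 19.1 in ENZS (median 10.6). The ranges overlapped. The rise of 1.02 (SE 0.40, adjusted p = 0.0396) was not called with TPM as deposited, median centring, a pseudocount of 0.1 or no filter, where the adjusted p was 0.0728 to 0.135. Against PRE-CX, LINC01980 rose by 1.74 (SE 0.41, adjusted p = 0.000291) in ENZS.

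In ENZS against CRPC, LINC00161 fell by 1.5025 (SE 0.42, adjusted p = 0.00444) and LINC01029 fell by 1.21 (SE 0.35, adjusted p = 0.00588). LINC01029 (chromosome 18, start 77971294, end 77993727) measured 0 to 5.90 in PRE-CX (median 0.972), 1.63 to 9.37 in POST-CX (median 3.93), 0.0427 to 12.8 in CRPC (median 3.33), 0 to 2.61 in ENZS (median 0.771) and 0 to 2.55 in ENZR (median 0.233). Every group overlapped with PRE-CX. Its POST-CX rise of 1.03 (SE 0.40, adjusted p = 0.0470) was not called with TPM as deposited, with median centring, with a pseudocount of 0.1, without a filter or without the 2 tumours of lowest human share, where the adjusted p was 0.0582 to 0.232. In the same comparison of ENZS with CRPC all 8 cell division genes fell, with a median of -2.30, and 3 of the 12 androgen-induced genes fell.

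**Figure D5:**
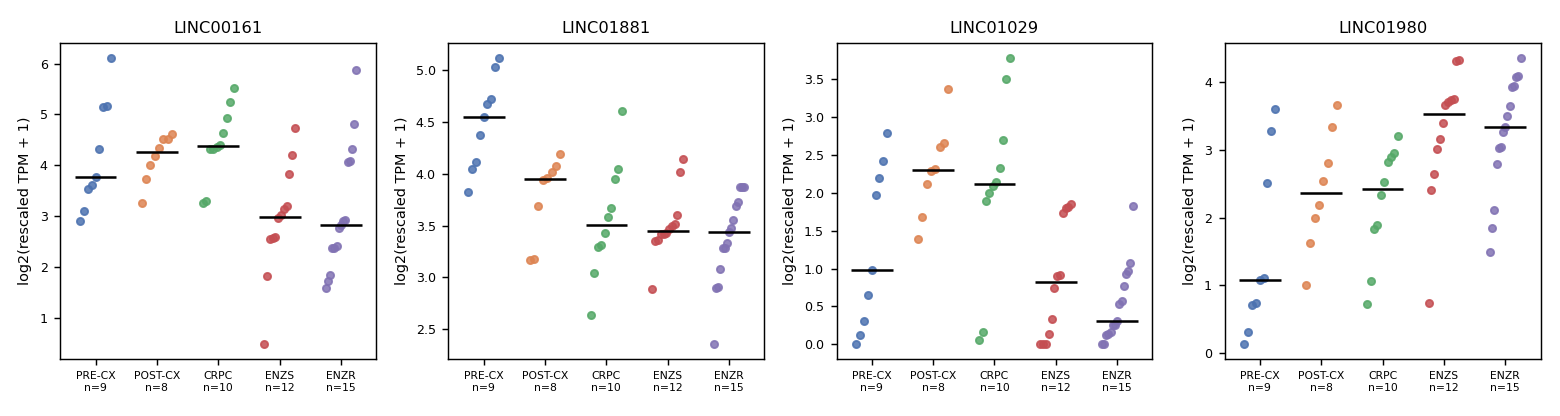
Levels of LINC00161, LINC01881, LINC01029 and LINC01980 as log2(rescaled TPM + 1), with a point per tumour in order of level within each group and a bar at the group median. LINC00161 had a median of 6.96 rescaled TPM in ENZS and 19.8 in CRPC, and LINC01980 had medians of 10.6 and 4.37, with overlap in both.

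ENZR against ENZS, the step to relapse on enzalutamide, gave 0 members called in either direction by limma, beside 0% of all genes. At an unadjusted p under 0.05 there were 16 members and 1752 genes. The median difference was -0.08 over the members and -0.04 over all genes.

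The rule did not use the position of members next to coding genes, but the members counted here had all passed its level thresholds. A tested coding gene was nearest to 94 members. Of these members 28 were called higher in ENZS, and the neighbour of 7 of the 28 was called higher and that of 1 lower, where 10.5% and 3.09% of all genes were called. The 7 were LINC00271, LINC01003, LINC01687, LINC02035, LINC02256, LINC02718 and LINC02726. The 33 members beyond 100 kb of a coding gene gave 14 calls higher in ENZS (42.4%) and 14 in ENZR (42.4%). The 26 that overlapped a coding span gave 6 (23.1%) and 4 (15.4%). Of all genes tested, 10.5% were called higher in ENZS and 7.38% in ENZR. The members beyond 100 kb include LINC02672, LINC02726 and LINC02326, whose PRE-CX means were under 1, so these shares carry the effect of the level rule.

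Of the 15 members in a head-to-head arrangement with a coding gene, 11 had a tested partner under its RefSeq symbol, and those described next were named after their values were seen. LINC02718 starts 35 bases from SVIP, a small protein that binds the chaperone VCP, and rose by 1.43 (SE 0.34) in ENZS while SVIP rose by 1.78 (SE 0.27). LINC01184 starts 591 bases from SLC12A2, a sodium-potassium-chloride transporter, and rose by 1.21 (adjusted p = 2.81e-09) beside 1.57 for SLC12A2. LINC00271 starts 61 bases from AHI1, a protein of the primary cilium, and rose by 1.63 beside 1.25 for AHI1. LINC01137 rose by 1.99 (adjusted p = 1.65e-09), whereas its partner ZC3H12A, a ribonuclease that degrades inflammatory messenger RNA, was higher by 0.93 (adjusted p = 0.00124), without a call. LINC00909 and LINC01786 were higher by 0.84 each, short of a call, beside ZNF407 at 0.19 (adjusted p = 0.221) and UBE2J2 at 0.01 (adjusted p = 0.918). Over all 11 pairs with a tested partner, the median ENZS difference was 0.84 for the members and 0.67 for the partners.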

How the data were processed

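RNA-seq of polyadenylated RNA was available for 54 tumours in 5 groups. Per the labels, libraries were strand-specific, with about 40 M read pairs of 125 bases per sample. According to the submitters' processing notes and the study's methods, reads were checked with FastQC 0.11.9, trimmed with Trim Galore 0.6.5, aligned with STAR 2.7.2b to a joint human (GRCh38, Gencode 33) and mouse reference, and quantified with RSEM 1.3.3. The table deposited by the authors gives TPM per human symbol after removal of mouse genes. TPM hold no read depth, so no counting interval is given, and precision rests on the spread between tumours.

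Each tumour was rescaled to 1000000. Symbols at 1 or more in at least 8 tumours (17593) were tested on log2(rescaled TPM + 1) with limma 3.58.1 (R 4.3.3, trend option) in 1 fit of 5 group means, with Benjamini-Hochberg adjustment per comparison over all tested symbols, after a check on simulated data. The 4 comparisons with PRE-CX share their controls. The relapse steps were compared by the contrast of ENZR minus ENZS against CRPC minus POST-CX. Alternatives were TPM as deposited, centring on the median gene, a pseudocount of 0.1, no filter, leaving out POST-CX mouse 91 and ENZR mouse 87, and, chosen after seeing the data, leaving out ENZS mouse 49 and CRPC mouse 81. No mouse number is shared between groups, so nothing was paired.

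The members and lists were chosen with earlier results of these data known. Named members were LINC00844, the 10 of highest mean, the 3 largest called rises and falls per comparison, members called in the relapse contrast, and 3 symbols on either side of the level rule. Positions, nearest coding genes and promoters came from RefSeq (GRCh38.p14), and transcript lengths and exon numbers from a Gencode annotation. RSEM divides reads among similar copies, so members in duplicated regions are uncertain. Tables were handled in Python 3.11.15 with pandas 2.3.3 and scipy 1.17.1.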

Additional observations from a re-analysis of the deposited data

Results flagged for a closer look

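Among the named members, and for the number and summed level of members per tumour, each PRE-CX, POST-CX and CRPC group was examined for a tumour standing far from the rest, which made 66 groups. There were 9 such values. Chance alone would give about 1 in 20 groups if the groups were independent. The same tumours enter many of them, and some stand apart more than once, so no excess over chance is read from the 9. CRPC mouse 81 expressed 135 members, the fewest of its group, with a summed level of 1235 rescaled TPM and LINC00886 at 1.28. POST-CX mouse 48 had the lowest sum of its group, 1521, and the lowest LINC00847, 32.0. Before rescaling its human share was 59.7%. PRE-CX mouse 53 was high for LINC02726, at 2.51, and for LINC02210, at 37.2. POST-CX mouse 91, whose human share was 27.9%, was high for LINC02726, at 10.1. CRPC mouse 47 was high for LINC00467, at 66.7.

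The relapse steps of LINC00844 differed by -3.62 (SE 0.69, limma adjusted p = 0.0124), a difference between castration alone and enzalutamide that was itself tested.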

How the results depend on the processing

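The scaling and the pseudocount moved the counts of called members most, and the cause was not tested. In POST-CX against PRE-CX, 16 members were called higher with rescaled TPM, 6 with TPM as deposited, 9 with median centring and 38 with a pseudocount of 0.1. In CRPC against PRE-CX, 20 became 34 with a pseudocount of 0.1, and with centring 1 was called lower in place of 0. In ENZS against PRE-CX, 52 became 31 with centring, and the 1 called lower became 2 with TPM as deposited, centring or a pseudocount of 0.1. In ENZR against PRE-CX, 46 became 26 with TPM as deposited and 20 with centring. In CRPC against POST-CX the call of LINC00844 became 0 calls with TPM as deposited, a pseudocount of 0.1 or no filter. In ENZS against CRPC, the 1 called higher became 0 with TPM as deposited, centring or no filter and 8 with a pseudocount of 0.1. The relapse contrast called 2 members with centring and 2 without ENZS mouse 49 and CRPC mouse 81. With a pseudocount of 0.1 the genes called higher also went from 420 to 1196 in POST-CX, from 383 to 988 in CRPC and from 279 to 885 in ENZS against CRPC. A mean of at least 5 in the rule left 82 members. Without POST-CX mouse 91 and ENZR mouse 87, 159 symbols met the rule, and the members called higher numbered 11 in POST-CX and 45 in ENZR. Over all genes, the higher and lower calls were 420 and 225 in POST-CX with rescaled TPM but 157 and 291 with TPM as deposited, with an all-gene median of -0.05 in place of 0.16. No call of a named member changed sign. No paired analysis was possible because the groups share no mouse number.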

Other observations

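The 3 members with the widest spread over the tumours, relative to their mean, owed it to a few tumours. LINC00342 was at 78.4 rescaled TPM in ENZR mouse 87, the tumour with the lowest human share (12.1%), and at most 15.2 in any other. It was called higher in ENZR against PRE-CX with that tumour (1.05, limma adjusted p = 0.00229) and fell short of a call without it and POST-CX mouse 91 (0.81, adjusted p = 0.00145). LINC01351 was at 154 in ENZR mouse 98, against 40.8 in the next tumour and a median of 8.43 over all. LINC00511 was at 30.8 in ENZR mouse 100, 25.3 in ENZS mouse 6 and 24.1 in another tumour, with at most 7.15 in the remaining ones. At the other end, LINC00839 ranged only from 10.4 to 19.8 over all 54 tumours, and differed between ENZR and PRE-CX by -0.15 (adjusted p = 0.122). LINC00960 had a mean of 21.3 and differed by -0.07 (adjusted p = 0.569).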
